A study of Mus musculus with 6 samples.

Results

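Antibodies are built from immunoglobulin heavy and light chains, and their genes were followed here in bulk RNA of mouse subcutaneous white adipose tissue (scWAT). The members were the genes whose symbol starts with Ighv, Igkv or Iglv, the constant genes of the heavy, kappa and lambda chains, and Jchain, provided that they held at least 10 counts summed over all libraries. The members were thus chosen on measured values, namely their summed counts. That left 198 of the 55401 genes in the files. They comprised 89 of 185 heavy chain variable segments (Ighv), 93 of 160 kappa variable segments (Igkv), all 3 lambda variable segments (Iglv), 8 heavy constant genes, 4 light constant genes and Jchain. Of the 361 genes that the names alone would give, 102 had no count in any library and 61 had 1 to 9 counts. Ighv3-2 and Igkv14-126-1, with 10 counts each, lay just inside the minimum, and Igkv11-114, Ighv3-3, Igkv12-47, Igkv18-36 and Ighv8-6, with 9 counts each, lay just outside it.

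The libraries came from 3 control mice with floxed *Yap* and *Taz* alleles (YT-FF, whose genotype the labels call WT) and from 3 mice of the genotype Yapfl/fl/Tazfl/fl;AdipoqCre (YT-AKO). All were males, 8 weeks of age. According to the study both groups carried the floxed alleles. The *Adipoq* promoter drives Cre in mature adipocytes and not in the lymphocytes that transcribe antibody genes. The floxed lines were of mixed C57BL/6 and 129 background, whereas the reads were counted on the segments of the C57BL/6 reference genome. The library totals lay between 17740987 and 21838493 counts. Of the targeted genes, *Yap1* had 1622, 1300 and 1295 counts in libraries YT-FF 1 to 3 and 649, 492 and 529 in the libraries labelled YT-AKO 1 to 3. *Wwtr1*, which encodes TAZ, had 1818, 1729 and 1918 against 3015, 2253 and 2716 counts and so went against the label. These counts cover all exons of the gene and cells without Cre as well. At the protein level, the study reported by immunoblot that YAP and TAZ were clearly lower in scWAT of YT-AKO mice. Directions below therefore refer to libraries by their labels.

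A developing B cell joins 1 variable (V), for heavy chains 1 diversity (D), and 1 joining (J) segment into the exon that encodes the antigen-binding domain, and that exon is then spliced to a constant gene. Variable segments record which receptors were made. Constant genes set the class of the antibody: Ighm and Ighd are used by naive B cells, and Ighg1, Ighg2b, Ighg2c, Ighg3, Igha and Ighe are reached by class switching. Plasma cells transcribe the same genes at very high levels, and Jchain encodes the chain that links IgM and IgA units. The inguinal fat pad of the mouse surrounds a lymph node, and whether it was removed is not given in the sources used here.

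The variable segments that carried most counts in single libraries are shown by a stretch of 57 bases near the end of their coding sequence, the side on which joining takes place. The capitals mark the codon of the conserved cysteine that closes the variable framework. Sequences were read 5′ to 3′ from GENCODE transcripts of the same build as the files, GRCm38. Each stretch stops 6 bases after the capitals. The transcripts of Ighv1-18, Ighv1-26 and Ighv1-64 end there, whereas that of Ighv3-8 holds 55 bases after the capitals. The heavy chain segments lie on the reverse strand of chromosome 12, Ighv1-18 at chr12:114682632-114683065, Ighv1-26 at chr12:114788372-114788805, Ighv3-8 at chr12:114322327-114322801 and Ighv1-64 at chr12:115507545-115508031.
Ighv1-18: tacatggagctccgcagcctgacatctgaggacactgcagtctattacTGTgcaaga
Ighv1-26: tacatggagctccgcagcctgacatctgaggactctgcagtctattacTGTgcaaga
Ighv3-8: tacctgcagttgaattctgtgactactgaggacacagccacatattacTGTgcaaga
Ighv1-64: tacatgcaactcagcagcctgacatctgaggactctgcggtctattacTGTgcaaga

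Kappa segments are shown in the same way. Their transcripts hold 23 bases after the capitals, so the stretches stop short of the segment end. Igkv6-17, Igkv5-39 and Igkv12-41 held large shares of 1 library, and Igkv6-15 is a relative of Igkv6-17 that did not. They lie on chromosome 6, Igkv6-17 on the forward strand at chr6:70371439-70371993 and the others on the reverse strand, Igkv6-15 at chr6:70406469-70406992, Igkv5-39 at chr6:69900424-69900977 and Igkv12-41 at chr6:69858420-69858884.
Igkv6-17: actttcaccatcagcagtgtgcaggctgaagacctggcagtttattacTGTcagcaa
Igkv6-15: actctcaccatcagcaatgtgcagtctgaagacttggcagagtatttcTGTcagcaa
Igkv5-39: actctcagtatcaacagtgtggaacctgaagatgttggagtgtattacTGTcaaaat
Igkv12-41: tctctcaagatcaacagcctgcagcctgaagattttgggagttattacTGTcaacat

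The segments are alike to different degrees. Ighv1-18 and Ighv1-26 were identical at 96.9% of 351 aligned bases, Ighv1-18 and Ighv1-64 at 83.5%, and Ighv1-18 and Ighv3-8 at 59.8%. Igkv6-17 and Igkv6-15 were identical at 90.8% of 347 aligned bases, and Igkv6-17 and Igkv12-41 at 65.7%. Of the 50-base words in Ighv1-26, 49.0% also occur in another annotated immunoglobulin segment, against 32.6% for Ighv1-18, 37.5% for Igkv6-17, 0.290% for Ighv3-8 and 0 for Igkv5-39. Counts of segments that share words are uncertain, because read pairs that align equally well to several segments were left out. The median share was 21.0% over the 89 Ighv members and 25.1% over the 93 Igkv members, and 5.18% and 5.97% over the Ighv and Igkv segments with under 10 counts.

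Ighm, Ighd and Igkc were the constant genes with the most counts, and of all constant genes only Ighd was called different. Ighd, the constant gene of IgD (chr12:113406604-113416324), had 11434, 11044 and 7504 counts in libraries YT-FF 1 to 3 and 3147, 3669 and 3238 in the libraries labelled YT-AKO 1 to 3. The groups did not overlap, with means of 197 ± 17.4 against 452 ± 57.5 CPM (counts scaled by library size and TMM; SD, n = 3 per group). The log2 fold change of Ighd was -1.20 (standard error 0.178, edgeR adjusted p = 0.0171). Ighm, the constant gene of IgM, had 18101, 22062 and 14538 counts in the YT-FF mice and 8766, 16898 and 9568 in the libraries labelled YT-AKO. The groups overlapped for Ighm, because YT-AKO 2 lay above all 3 YT-FF libraries in TMM-scaled CPM, though below all 3 in its share of the library total, and its log2 fold change was -0.27 (standard error 0.287, edgeR adjusted p = 0.510). Igkc, the only kappa constant gene, had 8002, 16315 and 7833 against 5160, 16172 and 4510 counts. YT-FF 2 and YT-AKO 2 were the high libraries of their groups for Igkc, and the log2 fold change was 0.06 (standard error 0.520, edgeR adjusted p = 0.943).

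**Figure D1:**
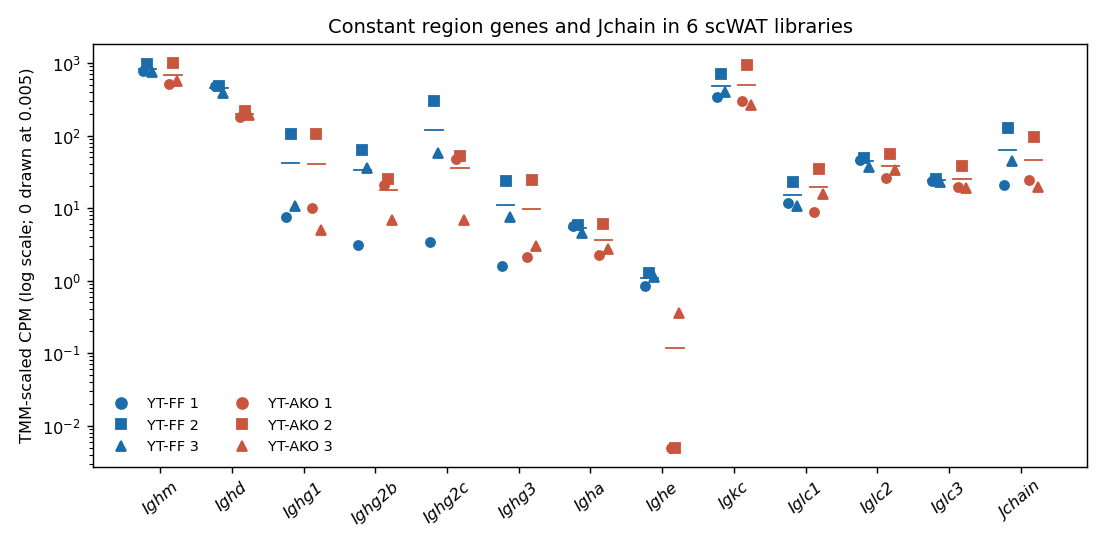
TMM-scaled CPM of the 12 constant genes and Jchain in each library, on a log axis, with a line at each group mean. Ighd is the abundant gene whose groups separate, and replicate 2 of both groups is high for Ighg1, Ighg3, Igkc and Jchain.

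The class-switched heavy chain genes differed widely among mice of the same group. Ighg2c, the constant gene of IgG2c, had 80, 6840 and 1125 counts in the YT-FF mice and 820, 894 and 115 in the libraries labelled YT-AKO. YT-FF 2 alone held more Ighg2c than all other libraries together, and the log2 fold change was -1.76 with a standard error of 1.28 (edgeR adjusted p = 0.328). Ighg1 had 180, 2416 and 208 against 175, 1801 and 84 counts. Ighg2b had 73, 1421 and 690 against 356, 430 and 116 counts, and Ighg3 had 37, 536 and 147 against 36, 415 and 51. In these genes the high libraries were replicate 2 of each group, with YT-FF 3 also high for Ighg2b. Their log2 fold changes were -0.04 for Ighg1, -0.93 for Ighg2b and -0.15 for Ighg3, with standard errors of 1.28, 0.880 and 1.09. Igha, the constant gene of IgA, had 134, 133 and 87 against 39, 102 and 46 counts. Ighe, the constant gene of IgE, had 20, 29 and 22 counts in the YT-FF mice and 0, 0 and 6 in the libraries labelled YT-AKO, which did not overlap. Its log2 fold change was -3.14 with a standard error of 1.01 (edgeR adjusted p = 0.0595), which did not pass. All 12 constant genes were tested, and 1 (8.33%) was called lower and 0 higher. That share lay near the one over all tested genes, of which 9.01% were called lower and 12.6% higher.

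The lambda constant genes were not called either. Iglc2 had 1081, 1118 and 716 against 445, 940 and 577 counts, Iglc3 had 558, 574 and 451 against 335, 638 and 321, and Iglc1 had 273, 524 and 208 against 154, 580 and 264. Each overlapped between the groups, and their log2 fold changes were -0.19, 0.07 and 0.37, with standard errors of 0.281, 0.277 and 0.501. Iglc2 shares 6.21% of its exon bases with Iglj2 and Iglc3 20.6% with 2010309G21Rik, so fragments over those bases could not be assigned to them alone. Jchain had 483, 2900 and 871 counts in the YT-FF mice and 427, 1606 and 333 in the libraries labelled YT-AKO, with a log2 fold change of -0.47 (standard error 0.763, edgeR adjusted p = 0.667).

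Within a library the composition does not depend on scaling. Ighm made up 60.2%, 49.6% and 59.8% of the heavy chain constant counts in libraries YT-FF 1 to 3 and 65.7%, 69.8% and 72.4% in the libraries labelled YT-AKO 1 to 3. Ighd made up 38.0%, 24.8% and 30.9% against 23.6%, 15.2% and 24.5%. Neither gene's shares overlapped between the groups, for Ighd only narrowly, and in counts per kilobase the Ighd share of YT-FF 2 (23.8%) lay below that of YT-AKO 3 (24.4%). There were 63.2, 50.1 and 51.6 Ighd counts per 100 Ighm counts in YT-FF, and 35.9, 21.7 and 33.8 in the libraries labelled YT-AKO, where every value was lower. Both genes have nearly the same exon length (1886 bases for Ighm and 1900 for Ighd).

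The 6 class-switched genes together made up 1.74%, 25.6% and 9.37% of heavy chain constant counts in the YT-FF mice and 10.7%, 15.04% and 3.16% in the libraries labelled YT-AKO. The exact 95% binomial interval was 1.60% to 1.90% for YT-FF 1 and 25.2% to 25.98% for YT-FF 2, so mice of the same group differed far beyond counting error. Ighg2c was the largest class-switched gene in YT-FF 2, at 15.4%, and Ighg1 in YT-AKO 2, at 7.44%. Kappa took 80.7%, 88.0% and 85.1% of light chain constant counts in the YT-FF mice and 84.7%, 88.2% and 79.5% in the libraries labelled YT-AKO, with overlapping groups. Such intervals cover counting error only.

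**Figure D2:**
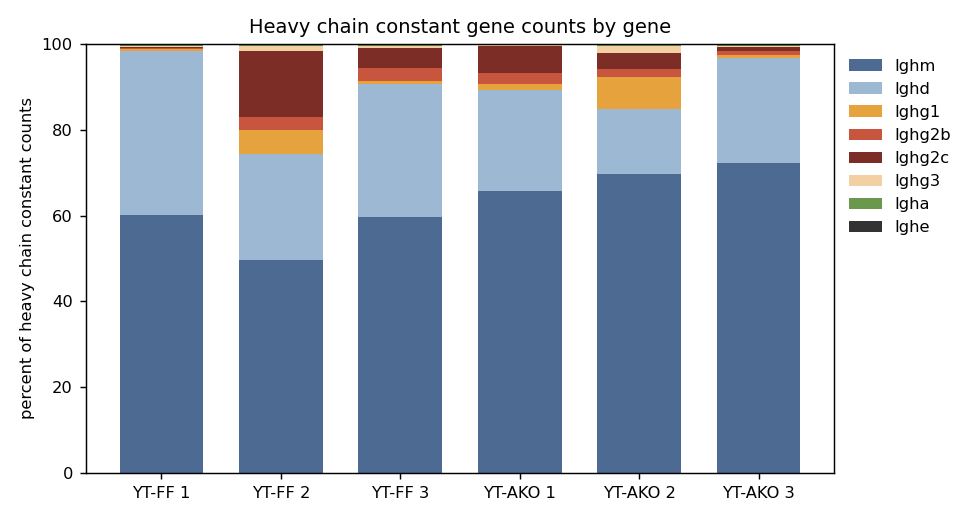
Share of each heavy chain constant gene in the heavy chain constant counts of each library, in percent. Class-switched genes reach 25.6% in YT-FF 2 and 15.04% in YT-AKO 2 and are at 1.74% in YT-FF 1, while Ighm takes a larger part in every library labelled YT-AKO than in any YT-FF library.

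The summed variable segments were lower in the libraries labelled YT-AKO, with the largest ratio for heavy chain segments. The summed Ighv members had 2139, 5233 and 1740 counts in the YT-FF mice and 594, 127 and 448 in the libraries labelled YT-AKO, with means of 137 ± 80.4 against 22.8 ± 13.9 CPM (SD, n = 3 per group). This was 5.99 times more in YT-FF, and no YT-AKO library reached the lowest YT-FF library. The ratio leaned on YT-FF 2 and was 3.96 without it, and it went from 4.49 to 8.06 with other libraries left out in turn. The summed Igkv members had 4054, 8249 and 3689 against 1928, 2045 and 1693 counts, or 241 ± 105 against 111 ± 10.3 CPM. The summed Iglv members had 613, 1029 and 336 against 185, 184 and 194 counts, or 29.5 ± 14.2 against 11.0 ± 0.384 CPM. The kappa and lambda groups did not overlap either, at 2.18 and 2.68 times more in YT-FF (1.63 and 1.97 without YT-FF 2). The heavy constant genes, by contrast, gave 1493 ± 397 against 993.7 ± 374 CPM with overlapping groups, and Igkc 486 ± 201 against 506 ± 387 CPM. In bulk tissue, fewer B cells and less antibody RNA per cell cannot be told apart. Variable counts were also lower relative to constant counts, in both T cell receptor chains too, as given below. The cause of that difference was not tested.

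Of the 198 members, 122 passed the low-count filter of edgeR and 76 did not. In that fit 24 members (19.7%) were called lower, beside 9.01% of all 16807 tested genes, and 0 were called higher, beside 12.6% of all tested genes. At an unadjusted p under 0.05 the fit had 54 members (44.3%) lower, beside 18.6% of all tested genes, and 0 higher, beside 22.2%. DESeq2 and limma-voom also called 0 higher. The calls comprised 17 of 44 tested Ighv, 5 of 62 tested Igkv, 1 of 3 Iglv and Ighd. The share of Igkv members called (8.06%) lay near the background. The median log2 fold change was -2.15 over the 44 tested Ighv, -0.90 over the 62 tested Igkv and -1.27 over the Iglv, beside -0.02 over all tested genes. Many of the members passed the filter through the YT-FF libraries, where they were high. These medians and the shares of members above therefore describe the members that passed and support no difference. With at least 10 counts asked of every library, which leaves out segments near 0 in YT-AKO 2, 51 members were tested and 11 (21.6%) were called lower, beside 12% of 14487 genes. The median over those members was -0.70 in place of -1.41 over the 122, and the 51 held 2 Ighv and 35 Igkv members.

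The count of calls depended on single libraries, for all genes as for the members. Without YT-FF 1 there were 0 calls in either direction among all 17183 genes tested, and without YT-FF 2 there were 2 lower and 0 higher among 17140, so the 0 calls among the members in both fits are not particular to them. At an unadjusted p under 0.05 these fits had 49 (38.9%) and 33 (26.8%) members lower, beside 11.9% and 11.7% of all genes. Leaving out YT-FF 3 gave 6 of 133 tested members lower (4.51%, beside 3.02% of all genes), and YT-AKO 3 gave 11 of 138 (7.97%, beside 5.12%). These shares lay near those over all genes. Leaving out YT-AKO 1 gave 20 of 138 (14.5%, beside 8.24%), and YT-AKO 2 gave 33 of 137 (24.1%, beside 14%). In TMM-scaled CPM, 66 of the 122 tested members (54.1%) had every library labelled YT-AKO below every YT-FF library, beside 25.8% of all tested genes. None had every one above, beside 25.7%. The limit given above for the filter holds for the shares of this paragraph too, and they support no difference. Over all 198 members the counts were 96 and 0. The share over all genes without the filter was not computed, so these counts support no difference.

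**Figure D3:**
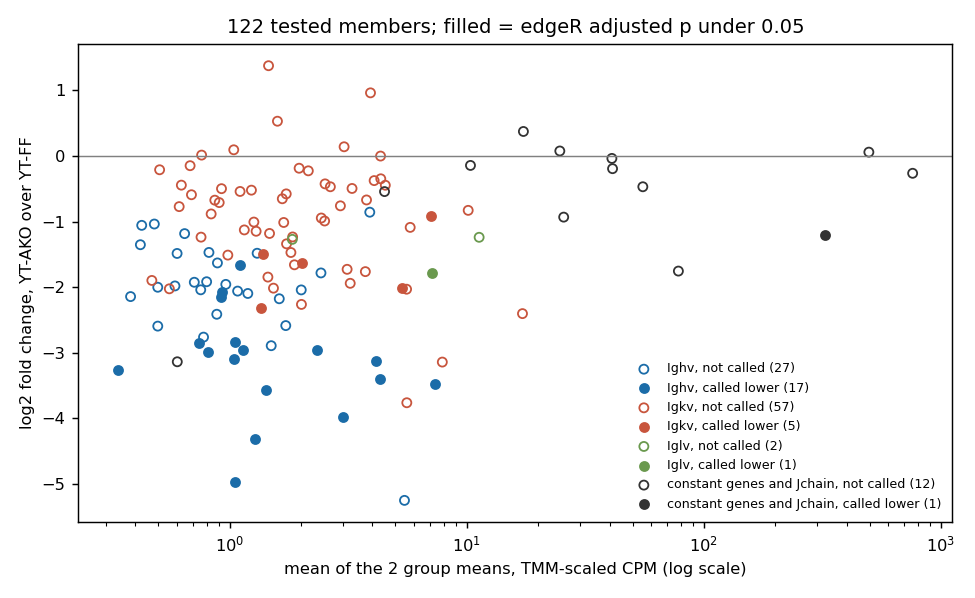
Log2 fold change (YT-AKO over YT-FF) of the 122 tested members against the mean of both group means in TMM-scaled CPM, by class, filled where edgeR's adjusted p was under 0.05. The 17 called Ighv segments lie between -1.66 and -4.97, the constant genes other than Ighd, Ighg2c and Ighe within 1 of 0.

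Among the heavy chain segments, Ighv1-18 had the smallest p. It had 221, 140 and 157 counts in the YT-FF mice and 12, 16 and 10 in the libraries labelled YT-AKO, and its log2 fold change was -3.39 (standard error 0.331, edgeR adjusted p = 0.00782). It was the most counted Ighv member of YT-FF 1 and of YT-FF 3. Its near relative Ighv1-26, the most counted Ighv member in all, had 127, 647 and 129 against 26, 1 and 35 counts. Both segments were low in every library labelled YT-AKO, and Ighv1-26 fell by 3.47 on the log2 scale (standard error 0.969, edgeR adjusted p = 0.0416) and by 2.31 without YT-FF 2, where it was not called.

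Other abundant heavy segments owed their totals to YT-FF 2. Ighv3-8 had 13, 698 and 15 counts in the YT-FF mice and 1, 0 and 13 in the libraries labelled YT-AKO, so that YT-FF 2 held nearly all of it and the groups overlapped. Its log2 fold change of -5.25 had a standard error of 1.84 (edgeR adjusted p = 0.0729). Ighv3-6 had 67, 396 and 39 against 11, 15 and 17 counts. Ighv1-50 had 33, 331 and 19 against 10, 3 and 5 counts. Neither overlapped between the groups, and both were called, at log2 fold changes of -3.13 and -3.98 (edgeR adjusted p = 0.0398 and 0.0460). Both leaned on YT-FF 2, without which the log2 fold changes were -1.53 and -1.75 and neither was called. Over all alternatives that gave an adjusted p, Ighv3-6 was called in 7 of 13 and Ighv1-50 in 2 of 11. Ighv1-64 differed from these: it had 68, 232 and 39 against 128, 3 and 12 counts, was the most counted Ighv member of YT-AKO 1, and had a log2 fold change of -0.86 (standard error 1.12, edgeR adjusted p = 0.590).

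Other called heavy segments were less abundant and rested on small counts in the libraries labelled YT-AKO. Ighv8-12 had 30, 32 and 67 counts in the YT-FF mice and 1, 0 and 2 in the libraries labelled YT-AKO. Ighv1-75 had 32, 41 and 26 against 5, 6 and 7 counts, and Ighv4-1 had 26, 47 and 26 against 4, 7 and 6. Ighv1-74 had 23, 38 and 67 against 6, 2 and 5 counts. These 4 segments had log2 fold changes of -4.97, -2.07, -2.15 and -2.96 and did not overlap between the groups. Ighv6-6 (23, 84 and 17 against 5, 4 and 4 counts), Ighv5-17 (29, 27 and 37 against 4, 0 and 5) and Ighv13-2 (14, 17 and 10 against 2, 0 and 1) were also called and also did not overlap. Their log2 fold changes were -2.83, -2.99 and -3.27. With single libraries left out, Ighv6-6 went to -1.85 (without YT-FF 2), Ighv8-12 to -5.84 (without YT-AKO 3), Ighv13-2 to -4.12 (without YT-AKO 1) and Ighv1-74 to -2.35 (without YT-FF 3). Ighv5-16, the most counted Ighv member of YT-AKO 2 with 17 counts there, had 21, 9 and 77 counts in the YT-FF mice and 3 and 1 in YT-AKO 1 and 3, and was not called.

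Among the kappa segments, 5 were called lower. Igkv14-111 had 95, 246 and 212 counts in the YT-FF mice and 36, 38 and 34 in the libraries labelled YT-AKO, with a log2 fold change of -2.02 (standard error 0.408, edgeR adjusted p = 0.0217). Igkv1-117 had 278, 203 and 135 against 80, 93 and 76 counts, with a log2 fold change of -0.92 (standard error 0.264, edgeR adjusted p = 0.0444). Igkv13-84 had 42, 45 and 59 against 9, 4 and 10 counts, and Igkv5-43 had 48, 53 and 35 against 17, 11 and 9, with log2 fold changes of -2.31 and -1.50. For these 4 segments no library labelled YT-AKO reached the lowest of YT-FF. The fifth was Igkv4-72, which lay outside the rule for named genes and is given because the count is small (log2 fold change -1.63, edgeR adjusted p = 0.0434).

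The most counted kappa segments were again those of YT-FF 2. Igkv6-17, the most counted of all variable segments, had 146, 1731 and 88 counts in the YT-FF mice and 63, 137 and 79 in the libraries labelled YT-AKO, which overlapped. Without YT-FF 2 its log2 fold change went from -2.40 to 0.02. Igkv5-39 had 99, 825 and 41 against 31, 32 and 19 counts, Igkv8-19 had 33, 667 and 11 against 11, 7 and 21, and Igkv9-120 had 103, 433 and 68 against 39, 32 and 41. None of these was called (edgeR adjusted p = 0.121, 0.0604, 0.0862 and 0.0580 for Igkv6-17, Igkv5-39, Igkv8-19 and Igkv9-120). Igkv6-15, the relative shown beside Igkv6-17, had 106, 133 and 104 against 53, 77 and 66 counts and no such peak in YT-FF 2. Igkv10-96, the most counted kappa segment of YT-AKO 2 and YT-AKO 3, had 202, 457 and 200 against 88, 199 and 86 counts and was not called (log2 fold change -0.83, standard error 0.442).

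Some segments were high in 1 library labelled YT-AKO. Igkv12-41 had 47, 49 and 75 counts in the YT-FF mice and 217, 20 and 30 in the libraries labelled YT-AKO, so YT-AKO 1 stood far above the rest. Its log2 fold change was 0.96 (standard error 0.837) and -0.84 without YT-AKO 1. Of the Igkv members, 5 had more counts in YT-AKO 2 than in any other library, namely Igkv2-112, Igkv7-33, Igkv8-27, Igkv6-23 and Igkv8-18, picked after their values were seen. Igkv6-23 had 102, 100 and 83 against 55, 119 and 47 counts, and Igkv8-27 had 32, 39 and 16 against 11, 61 and 24. No Ighv member was highest in YT-AKO 2.

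All 3 lambda variable segments had negative log2 fold changes, and 1 was called. Iglv3 had 283, 313 and 144 counts in the YT-FF mice and 58, 51 and 56 in the libraries labelled YT-AKO, with a log2 fold change of -1.78 (standard error 0.286, edgeR adjusted p = 0.0177). Iglv1 had 263, 636 and 164 against 108, 127 and 108 counts and did not overlap, with a log2 fold change of -1.24 (edgeR adjusted p = 0.0728). Iglv2 had 67, 80 and 28 against 19, 6 and 30 counts and did overlap. Iglv1 and Iglv2 share 22.2% and 21.1% of their 50-base words with each other, and Iglv3 shares none with another segment.

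Variable and constant counts came apart within libraries, most of all in YT-AKO 2. For every 100 heavy constant counts there were 7.12, 11.8 and 7.15 Ighv counts in the YT-FF mice and 4.45, 0.525 and 3.39 in the libraries labelled YT-AKO. For every 100 Igkc counts there were 50.7, 50.6 and 47.1 Igkv counts against 37.4, 12.6 and 37.5. For every 100 Iglc1 to Iglc3 counts there were 32.1, 46.4 and 24.4 Iglv counts against 19.8, 8.53 and 16.7. The groups did not overlap in any of the 3 chains, and YT-AKO 2 was lowest in each. YT-AKO 2 thus had 24209 heavy constant counts, nearly as many as YT-FF 3 (24321), but 127 Ighv counts beside 1740.

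**Figure D4:**
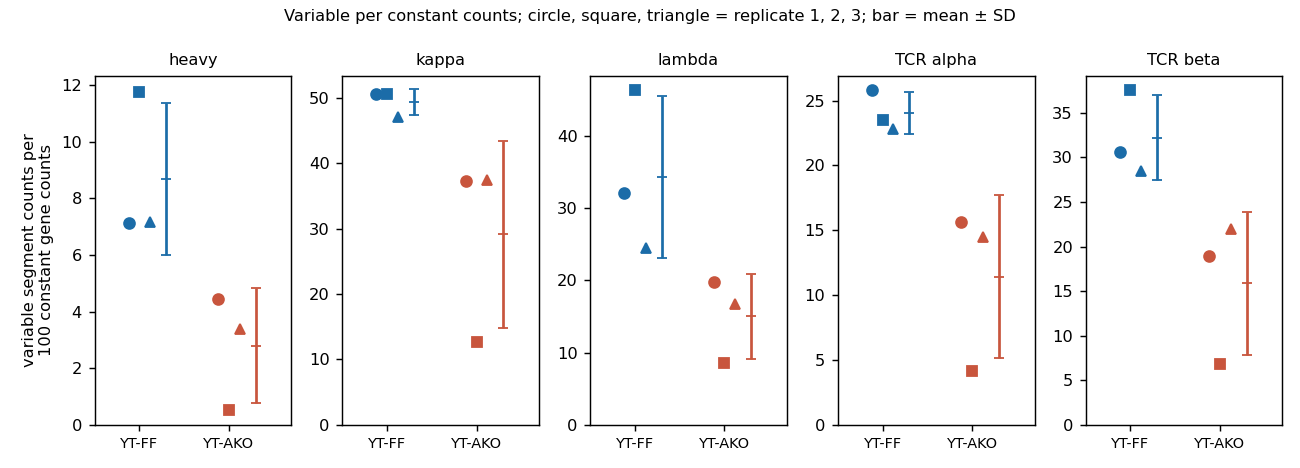
Counts of variable segments per 100 counts of the constant genes of the same chain in each library, with mean ± SD per group, for heavy, kappa and lambda chains and for both chains of the T cell receptor (TCR). All libraries labelled YT-AKO lie below all YT-FF libraries in each panel, and YT-AKO 2 (square) is lowest in each.

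The variable segments of the T cell receptor, which T cells assemble by the same recombination, were counted beside them. There were 25.8, 23.5 and 22.8 Trav counts per 100 Trac counts in the YT-FF mice and 15.6, 4.19 and 14.5 in the libraries labelled YT-AKO. There were 30.6, 37.6 and 28.5 Trbv counts per 100 Trbc1 and Trbc2 counts against 18.9, 6.80 and 22.0. These ratios had the same order of groups as those of the antibody chains, and YT-AKO 2 was again the lowest. The joining segments of the heavy chain (Ighj) had 212, 196 and 96 against 12, 5 and 26 counts, and those of the kappa chain (Igkj) had 546, 587 and 310 against 127, 4 and 56. Igkj counts per 100 Igkc counts were 6.82, 3.598 and 3.96 in YT-FF and 2.46, 0.0247 and 1.24 in the libraries labelled YT-AKO.

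The libraries also differed with gene length, which is given here because variable segments are short. The Spearman correlation across tested genes between a gene's deviation in a library and its exon length was 0.31, 0.33 and 0.28 in YT-FF and -0.20, -0.37 and -0.21 in the libraries labelled YT-AKO, genes not being independent replicates. Longer genes were thus relatively low in the libraries labelled YT-AKO, and YT-AKO 2 was at the extreme. The tested variable segments had exon lengths of 338 to 425 bases. The 128 other tested genes of that length outside the antigen receptor loci had a median log2 fold change of 1.09. Of these, 7 were called lower and 23 higher. Only 10 of the 128 were protein coding, with a median of 1.75, 0 called lower and 5 higher. A variable segment is spliced to a constant gene, so its exon length is not the length of its transcript. The 128 genes are therefore not a matched comparison for the variable segments. With a correction for gene length in each library, 21 members (17.2%) were called lower, beside 4.54% of all tested genes. The part of gene length, fragment length or RNA quality in these differences was not tested.

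Fewer different Ighv and Igkv segments were seen in YT-AKO 2. Of the 89 Ighv members, 88, 88 and 86 had a count in YT-FF and 71, 20 and 70 in the libraries labelled YT-AKO. Drawn down to 127 counts, the total of YT-AKO 2, the expected numbers were 53.7, 41.9 and 50.03 in YT-FF, 46.3 in YT-AKO 1 and 50.9 in YT-AKO 3, against 20 in YT-AKO 2. YT-AKO 1 and YT-AKO 3 thus lay within the range of YT-FF at equal depth, and YT-AKO 2 below it. Among the 69 Ighv members at 0 in YT-AKO 2, 40 had a count in every other library. Of the 93 Igkv members, 92, 92 and 89 had a count in YT-FF and 86, 74 and 89 in the libraries labelled YT-AKO, and drawn down to 1693 counts these were 89.4, 81.8 and 85.8 against 85.5, 73.4 and 89. A segment without a count in YT-AKO 2 is not shown to be absent, since a count of 0 allows up to 3 counts.

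**Figure D5:**
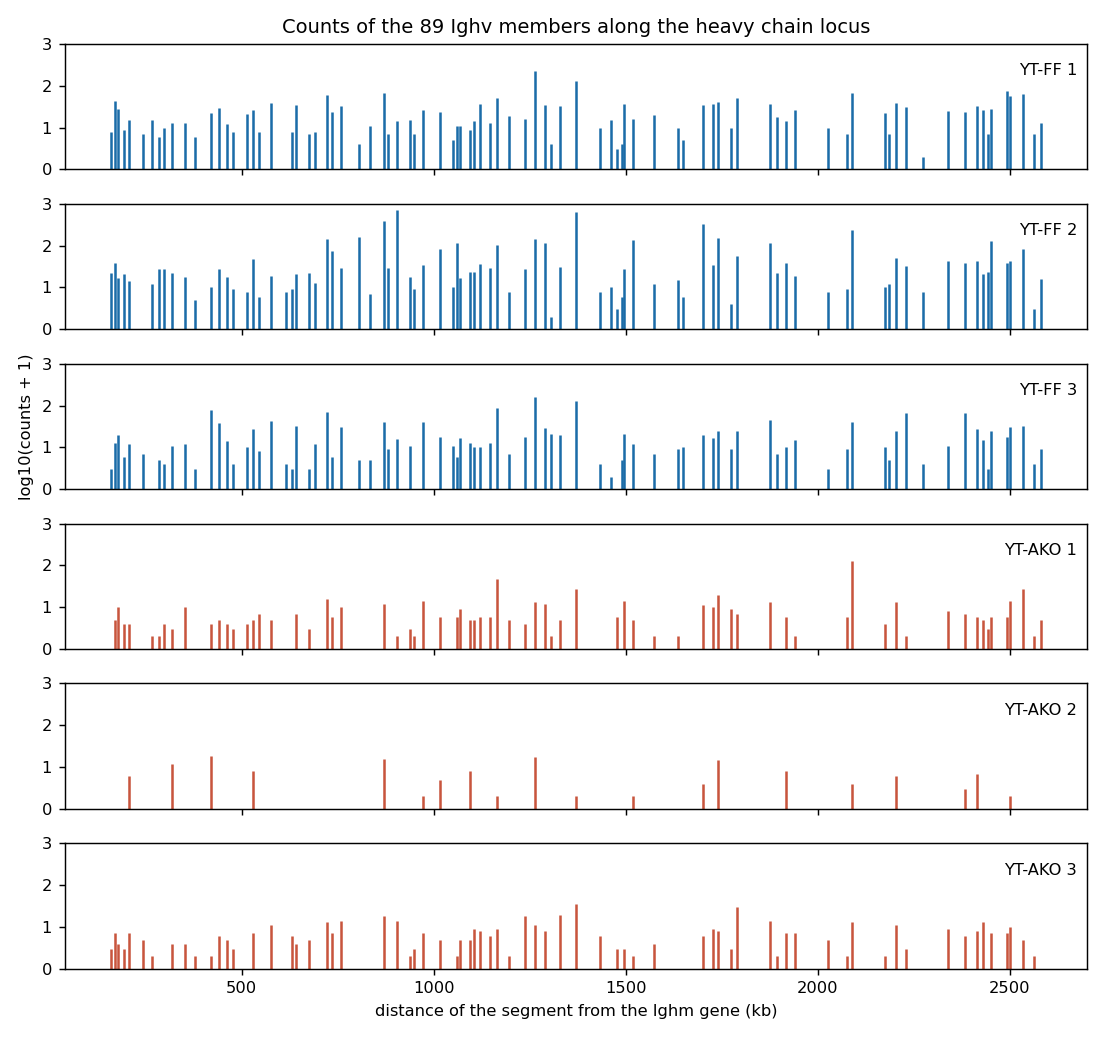
Counts of the 89 Ighv members, as log10(counts + 1), by distance from the Ighm gene in kb, 1 panel for each library. Segments with counts lie along the whole locus in every library, and in YT-AKO 2 the 20 with a count are spread over it.

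Counted segments were spread over the whole heavy chain locus. Of the 30 Ighv members nearest to Ighm (160 to 835 kb), 29, 29 and 29 had a count in YT-FF and 22, 4 and 22 in the libraries labelled YT-AKO. Of the 30 farthest from it (1637 to 2581 kb), 30, 30 and 30 had one against 25, 8 and 24. The nearest 30 held 23.3%, 15.9% and 26.5% of Ighv counts in the YT-FF mice and 17.0%, 31.5% and 22.8% in the libraries labelled YT-AKO. These shares overlapped between the groups.

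Single segments held large shares in some libraries. In YT-FF 2, Igkv6-17 held 21.0% of the Igkv counts (exact 95% interval 20.1% to 21.9%), and Igkv5-39 had 825 counts. In the same library Ighv3-8 held 13.3% and Ighv1-26 12.4% of the Ighv counts. In YT-AKO 1, Ighv1-64 held 21.5% of the Ighv counts (exact 95% interval 18.3% to 25.1%) and Igkv12-41 held 11.3% of the Igkv counts. In YT-AKO 2, Ighv5-16 held 13.4% of the 127 Ighv counts (exact 95% interval 8.00% to 20.6%) and Igkv10-96 held 9.73% of the Igkv counts. In YT-FF 1 and YT-FF 3 no segment passed 10.3% of Ighv or 6.86% of Igkv counts. YT-FF 2 was also the library with the most Ighg2c and Jchain counts.

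Segment families were compared by their share of the locus. Ighv1, the largest heavy chain family in the mouse, held 64.6%, 53.8% and 57.7% of Ighv counts in the YT-FF mice and 72.9%, 52.8% and 61.2% in the libraries labelled YT-AKO. Ighv3 held 21.2% in YT-FF 2 and 3.0% to 11.8% elsewhere. Ighv5 held 25.98% in YT-AKO 2, of 127 counts, and 2.6% to 9.5% elsewhere. Of the 15 Ighv families, 10 had no count in YT-AKO 2. Igkv6 held 13.8%, 27.1% and 14.3% against 12.8%, 21.2% and 18.5% of Igkv counts.

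The genes around the antibody were taken from the same fit, in lists chosen with results of these data known. Of 24 tested B cell genes, 15 were called lower and 0 higher, with a median log2 fold change of -0.84. Here and for the lists below, the shares over all tested genes are 9.01% lower and 12.6% higher. Ms4a1, which encodes CD20, had 4074, 4597 and 3075 counts against 1466, 1307 and 1269 in the libraries labelled YT-AKO (log2 fold change -1.17). The signalling subunits Cd79a and Cd79b had log2 fold changes of -0.15 and -0.08 and were not called. The summed level of the list was 2742 to 3237 CPM in YT-FF and 1593 to 2119 CPM in the libraries labelled YT-AKO, and no gene of it was at 0 in all libraries. The part of B cell number in the variable segments was not tested.

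Of 23 tested genes of antigen receptor signalling in B cells, 12 were called lower and 0 higher (median -0.66). Among the 22 plasma cell and antibody secretion genes, 5 were called lower and 3 higher (median -0.05). Those called higher were Sdc1, Creld2 and Hspa5, a syndecan and 2 proteins of the endoplasmic reticulum, and those called lower included Irf4 and Pou2af1, transcription regulators of B cells. Tnfrsf17, which encodes the plasma cell receptor BCMA, had 7, 14 and 7 counts in the YT-FF mice and 10, 17 and 23 in the libraries labelled YT-AKO. Mzb1 had 33, 48 and 49 against 19, 13 and 17. Neither was called, and both were near the limit of these counts.

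Of 10 tested receptors that bind antibody, 4 were called higher and 2 lower, beside 12.6% and 9.01% of all tested genes. Fcgrt, the neonatal Fc receptor that recycles IgG, had 5682, 5207 and 5953 against 7373, 14580 and 9157 counts (log2 fold change 1.24, edgeR adjusted p = 0.0271), and Fcgr1, Fcgr3 and Fcer1g of myeloid cells were also called higher. Fcer2a, the low-affinity IgE receptor of B cells, had 5393, 5500 and 3379 against 1389, 1158 and 1606 counts (log2 fold change -1.40). The other called lower was Fcamr, a receptor for IgA and IgM. Among the genes of recombination and hypermutation, 2 of 15 tested were called lower and 1 higher, which is near those shares. Rag1 and Rag2, which cut the segments in developing lymphocytes, did not pass the low-count filter and were not tested. Rag1 had 6, 2 and 8 counts in the YT-FF mice and 0 in each library labelled YT-AKO. Rag2 had 0, 0 and 6 against 0, 4 and 2 counts. Dntt of the same list was tested and not called (log2 fold change 0.04). Of the surrogate light chain genes of precursor B cells only Vpreb3 was tested, and it was not called.

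Markers of other cells were read beside these values. Of 25 T cell genes, 5 were called lower and 0 higher (median -0.20), with summed levels of 1180 to 1751 CPM in YT-FF and 943 to 2194 CPM in the libraries labelled YT-AKO. Of 14 tested genes of lymph node stroma and vessels, 1 was called lower and 0 higher (median -0.16), at 1050 to 1099 CPM against 956 to 1470 CPM. Glycam1, which marks the high endothelial venules of lymph nodes, had 1752, 1825 and 1291 against 1121, 1273 and 701 counts, so every library held counts of it. YT-AKO 2 stood apart in several of these genes, picked after their values were seen. It had 526 counts of Ccl19 against 6 to 46 elsewhere, 144 of Ccl21a against 1 to 15 and 6280 of Ltb against 1753 to 3010. Its 270 counts of Siglec1 lay below the 803 to 3225 elsewhere. Among the T cell genes it had 2806 counts of Cd3d against 545 to 839 and 3267 of Trbc1 against 608 to 1345. The adipocyte list summed to 29420 to 39344 CPM in YT-FF and 56533 to 104762 CPM in the libraries labelled YT-AKO, where 3 of 10 genes were called higher. Adipoq, Plin1 and Cfd were abundant in every library, as the labelled tissue requires. The part of a differing amount of lymph node in the results was not tested.

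Promoters of variable segments carry the octamer ATGCAAAT in front of their start, a sequence bound by the OCT factors. Among the members, RefSeq promoter sequence was at hand for Jchain alone, and its 300 bases hold the octamer on neither strand, while 1.74% of 32851 promoters hold it on 1 of the strands.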

How the data were processed

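Bulk RNA of scWAT was sequenced from 3 YT-FF and 3 YT-AKO mice. According to the study, libraries were made with the NEBNext Ultra kit and reads were aligned to mm10 with HISAT2. The deposited counts are whole fragments per gene, and per the file headers they were made by the authors with featureCounts 2.0.1 on GENCODE vM25 exons, paired end and without strand, so fragments that hit several genes were left out and antisense transcripts cannot be told apart. Symbols were matched to 55141 of 55401 genes. The members and the gene lists were chosen with earlier results of these data known. Counts of all genes were fitted with edgeR 4.0.16 (R 4.3.3; filterByExpr, TMM, quasi-likelihood test, group as only term), with Benjamini-Hochberg adjustment over 16807 genes and calls at an adjusted p under 0.05. The fit was also run on simulated counts with 200 changed genes, drawn from the means and dispersions of these data, and that outcome is not given here. The median log2 fold change of all genes was -0.02. DESeq2 1.42.0, limma-voom (limma 3.58.1), library totals alone, other filters, a spline of exon length (6 degrees of freedom), the replicate number as a block and each library left out were alternatives. Same-numbered libraries did not deviate together (correlations 0.13, -0.12 and -0.09), so the numbers were not taken as pairs. Genes named in the text were every constant gene and Jchain, the 6 Ighv, 6 Igkv and all Iglv members with most counts, the most counted Ighv and Igkv member of each library, and the first 12 called variable segments by p. With 3 mice a group, p-values set the group difference against the spread between these libraries, which edgeR estimates with information shared across genes. With 17740987 to 21838493 counts a library, 1 count was 0.0458 to 0.0564 CPM of the library total, and intervals and floors cover counting error only. Sequences came from GENCODE vM21 transcripts, whose coordinates were identical to those in the files for 198 of 198 members. Results for items withheld from this text are not reported here.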

Additional observations from a re-analysis of the deposited data

How the results depend on the processing

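The number of members called lower was 24 (19.7%, beside 9.01% of all tested genes). It was 37 (30.3%, beside 16.8%) with library totals alone and 51 (25.8%, beside 5.86%) with no filter. With at least 10 counts in every library it was 11 (21.6%, beside 12%), and with DESeq2 49 (31%, beside 11.7%). It was 0 with the replicate block, and with each library left out it went from 0 to 33 (24.1%, beside 14%, without YT-AKO 2). The zeros are not particular to the members, since over all genes the block left 9 lower and 24 higher of 16807, and leaving out YT-FF 1 or YT-FF 2 left 0 and 2 in all. At an unadjusted p under 0.05 the block had 46 members (37.7%) lower, beside 16.1% of all genes. The number called lower was 21 (17.2%, beside 4.54%) with the length correction. With limma-voom it was 16 (13.1%, beside 9.8%), near the share over all genes. Where the low-count filter was used, the limit given for it above holds for these shares too. The number called higher was 0 under every alternative run. With library totals alone the median log2 fold change of all genes went from -0.02 to -0.34. The number of members with every library labelled YT-AKO above every YT-FF library went from 0 to 2 with a library left out. The ratio of summed levels (YT-AKO over YT-FF) of Ighv, Igkv, Iglv and constant genes moved, on the log2 scale, by less than the pooled SD of both groups under library totals and with each library left out. The YT-AKO means alone moved by more than their own SD under library totals for Igkv (111 to 98.6 CPM, SD 10.3) and Iglv (11.0 to 9.87 CPM, SD 0.384).

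Over 40 named members and 498 refits, 26 refits of 11 members changed sign, none of them called. With library totals alone, the length correction, limma-voom and the replicate block, Igkc went to -0.36, -0.31, -0.12 and -0.12 and Iglc3 to -0.30, -0.18, -0.0019 and -0.00033. Iglc1 was -0.037 with library totals alone. Over the 6 fits without 1 library, the log2 fold change ranged from -1.53 to 0.50 for Jchain, -0.78 to 0.44 for Igkc, -2.33 to 0.22 for Ighg2c, -2.46 to 2.14 for Ighg1, -2.09 to 1.12 for Ighg3, -0.30 to 0.81 for Iglc1, -0.33 to 0.26 for Iglc3, -0.56 to 0.036 for Iglc2, -3.49 to 0.17 for Ighv1-64, -2.91 to 0.019 for Igkv6-17 and -0.84 to 1.43 for Igkv12-41.

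In counts per kilobase, the Igha share was 0.258% in YT-FF and 0.251% in YT-AKO, against 0.368% and 0.354% in counts. Drawn down to the lowest library, the mean number of Ighv members with a count in YT-FF was 48.5 in place of 87.3 and that of Igkv members 85.7 in place of 91.0. Depth limits the Ighv values of YT-AKO 2 most, which rest on 127 counts. The cause was not tested for any of these changes.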
